A study of Mus musculus with 19 samples.

Results

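The genes examined were 47 cell cycle and kinetochore genes, chosen by name: 2 proliferation markers, 10 cyclins and cyclin-dependent kinases, 5 E2F factors and kinase inhibitors, 11 DNA replication genes, 5 spindle checkpoint genes, 5 mitotic kinases and motors, and 9 kinetochore genes. They were found by the gene name that the array files give each probe, and 70 probes matched (Cdk1 also under its older name Cdc2a). The array carried 35019 gene names in all. Of the 47 genes, 35 passed the filter on low signal and were tested among 20620 genes. The other 12 passed it on too few arrays and are described by detection alone.

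RNA came from CD4+ T lymphocytes of spleen and lymph nodes of adult female C57Bl/6 mice with the genotype Tg IL-2-GFP x FOXP3mRFP, in which green fluorescence reports Il2 and red fluorescence reports Foxp3, the lineage factor of regulatory T cells. The 4 groups were GFP-RFP- (CD4+ T cells with neither reporter, n = 5), GFP+RFP- (named IL-2p CD4+ T cells, n = 5), GFP-RFP+ (named regulatory T cells, n = 5) and GFP+RFP+ (named IL-2p regulatory T cells, n = 4, replicates 1, 3, 4 and 5). All 4 groups carry both reporters and no treatment is named. A further label calls every group conventional, which the subtype label of the RFP+ groups contradicts. Values of the 4 groups are given below in this order. Replicate numbers come from the sample titles and recur across the groups, but no label says whether a number stands for a mouse. The main fit was therefore not paired, and the tests rest on the spread among these samples, part of which may be technical. A fit with replicate number as a block is given with the alternatives. RNA was amplified as cDNA by a global PCR and hybridised to a single-colour Agilent mouse array.

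Progress through the cell cycle is driven by cyclin-dependent kinases bound to cyclins. Cyclin D kinases release E2F factors in G1, E2F targets build the replication machinery, and cyclin B with Cdk1 starts mitosis. At the kinetochore, the protein platform between chromosome and spindle, the checkpoint proteins hold Cdc20 and the anaphase-promoting complex back until every chromosome is attached. Most CD4+ T cells of a resting mouse are out of cycle, while regulatory T cells are known to contain a larger cycling share.

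A level below is a relative level: log2 of a probe's processed signal, less the array's own 75th percentile among the probes that every array detected, so that 0 is that percentile and 1 unit is a factor of 2. A probe counts as detected where the scanner software marked it well above background. Differences are between group means of relative levels, with their standard error (SE), from limma with Benjamini-Hochberg adjustment over all 20620 genes, and a gene is called at an adjusted p under 0.05. Levels of different probes are not compared with each other. In these bulk samples, fewer cells in cycle and less RNA per cell cannot be told apart.

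The arrays differed in how many genes they detected. The share of probes well above background ran from 22.0% to 44.9%, and the 3 arrays under 30% were GFP-RFP+ replicates 1 and 4 and GFP+RFP+ replicate 1. Cd4, Cd3d, Cd3g, Lck and Zap70 were detected on all 19 arrays. Foxp3 was also detected on all 19, but its relative level was 0.25 on GFP-RFP+ replicate 3 and between -8.64 and -5.49 on the other RFP+ arrays, against -8.50 to -6.89 on the RFP- arrays. Foxp3 itself was not called between GFP-RFP+ and GFP-RFP- (log2 difference 2.55 ± 1.10 SE, adjusted p = 0.187). Il2 was detected on 2 GFP-RFP-, 2 GFP+RFP-, 0 GFP-RFP+ and 1 GFP+RFP+ arrays, so its array signal did not follow the green reporter. Of the 8 tested B cell markers, limma called 1 in GFP-RFP+ against GFP-RFP-, where 1.7% of all genes were called. This was Cd79b, a chain of the B cell receptor, which was lower (log2 difference -6.34 ± 1.51 SE, adjusted p = 0.0429). Of the 8, 3 had a difference above 0 and 5 below, and 2 had an unadjusted p under 0.05. The second of these 2, Ebf1, was higher (1.81 ± 0.76 SE, adjusted p = 0.178). All 10 B cell markers were detected on at least 1 array. The summed relative level (linear scale) of the 8 tested was 0.353 to 1.36 in GFP-RFP-, 0.54 to 2.34 in GFP+RFP-, 0.189 to 1.45 in GFP-RFP+ and 0.176 to 0.982 in GFP+RFP+. Of the tested T cell (12), myeloid and dendritic (7), NK and CD8 (7) and erythroid and platelet (2) markers, limma called none in that comparison, and 5, 1, 0 and 0 had an unadjusted p under 0.05, where 22.6% of all genes did. The part of these markers in the differences below was not tested.

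Cell cycle genes were detected on more of the RFP- than of the RFP+ arrays, and so were genes in general. On the GFP-RFP- arrays 26 to 30 of the 47 genes were detected (55.3% to 63.8%), where 46.5% to 53.4% of all gene names were. On the GFP+RFP- arrays the range was 16 to 33, where 38.8% to 49.5% of all gene names were detected, and replicate 4 was lowest in both. On the GFP-RFP+ arrays it was 12 to 29, and 4 of the 5 arrays had 17 or fewer. On the GFP+RFP+ arrays it was 17 to 24. The ranges of GFP-RFP- and GFP+RFP+ did not overlap, while those of GFP-RFP- and GFP-RFP+ did, through GFP-RFP+ replicate 3, the array with the high Foxp3 level, on which 29 members were detected. The arrays' overall detection moved in the same direction, with 29.4% to 48.0% of gene names in GFP-RFP+ and 33.9% to 47.4% in GFP+RFP+, and its part in the members' counts was not tested.

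**Figure D1:**
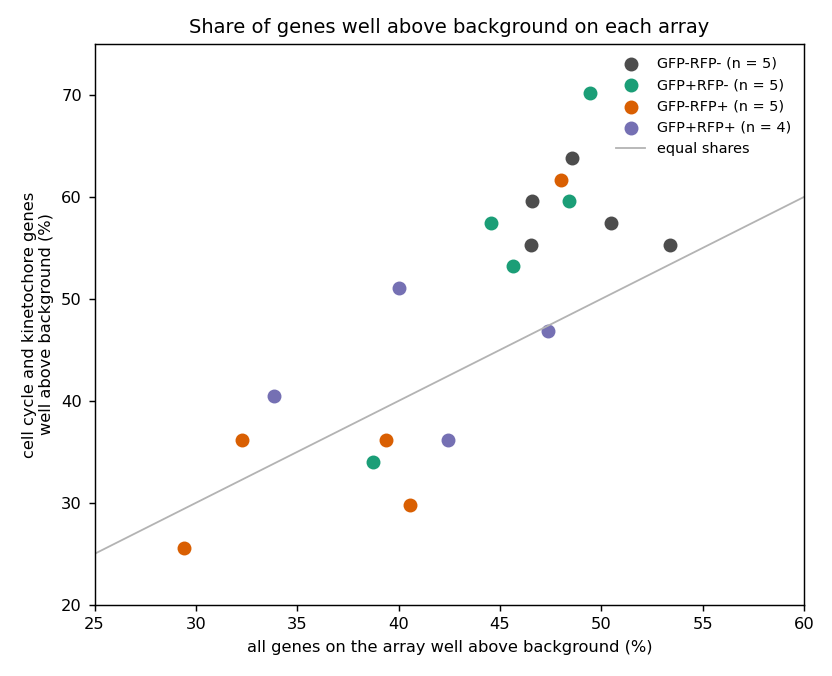
Share of all gene names on the array that were well above background (x axis, %) against the share of the 47 cell cycle and kinetochore genes that were (y axis, %), 1 point per array, coloured by reporter group, with a line of equal shares. The GFP-RFP- points lie between 55.3% and 63.8% on the y axis, and 4 of the 5 GFP-RFP+ points lie at or below 36.2%.

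Within a group, replicates often disagreed on whether a cell cycle gene was detected. Counted over the 35 tested genes and 4 groups, 40 of 140 gene and group pairs were detected on every array of the group, 11 on none and 89 (63.6%) on some arrays only. In GFP-RFP- 57.1% of the 35 genes were mixed in this way, against 42.1% of all genes tested, and in GFP-RFP+ 68.6% against 59.5%. The median range between the highest and the lowest replicate was 5.09 log2 units for the members and 2.52 for all genes in GFP-RFP-, 7.48 and 3.07 in GFP+RFP-, 6.22 and 3.51 in GFP-RFP+, and 4.01 and 2.62 in GFP+RFP+. These spreads set the standard errors below.

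**Figure D2:**
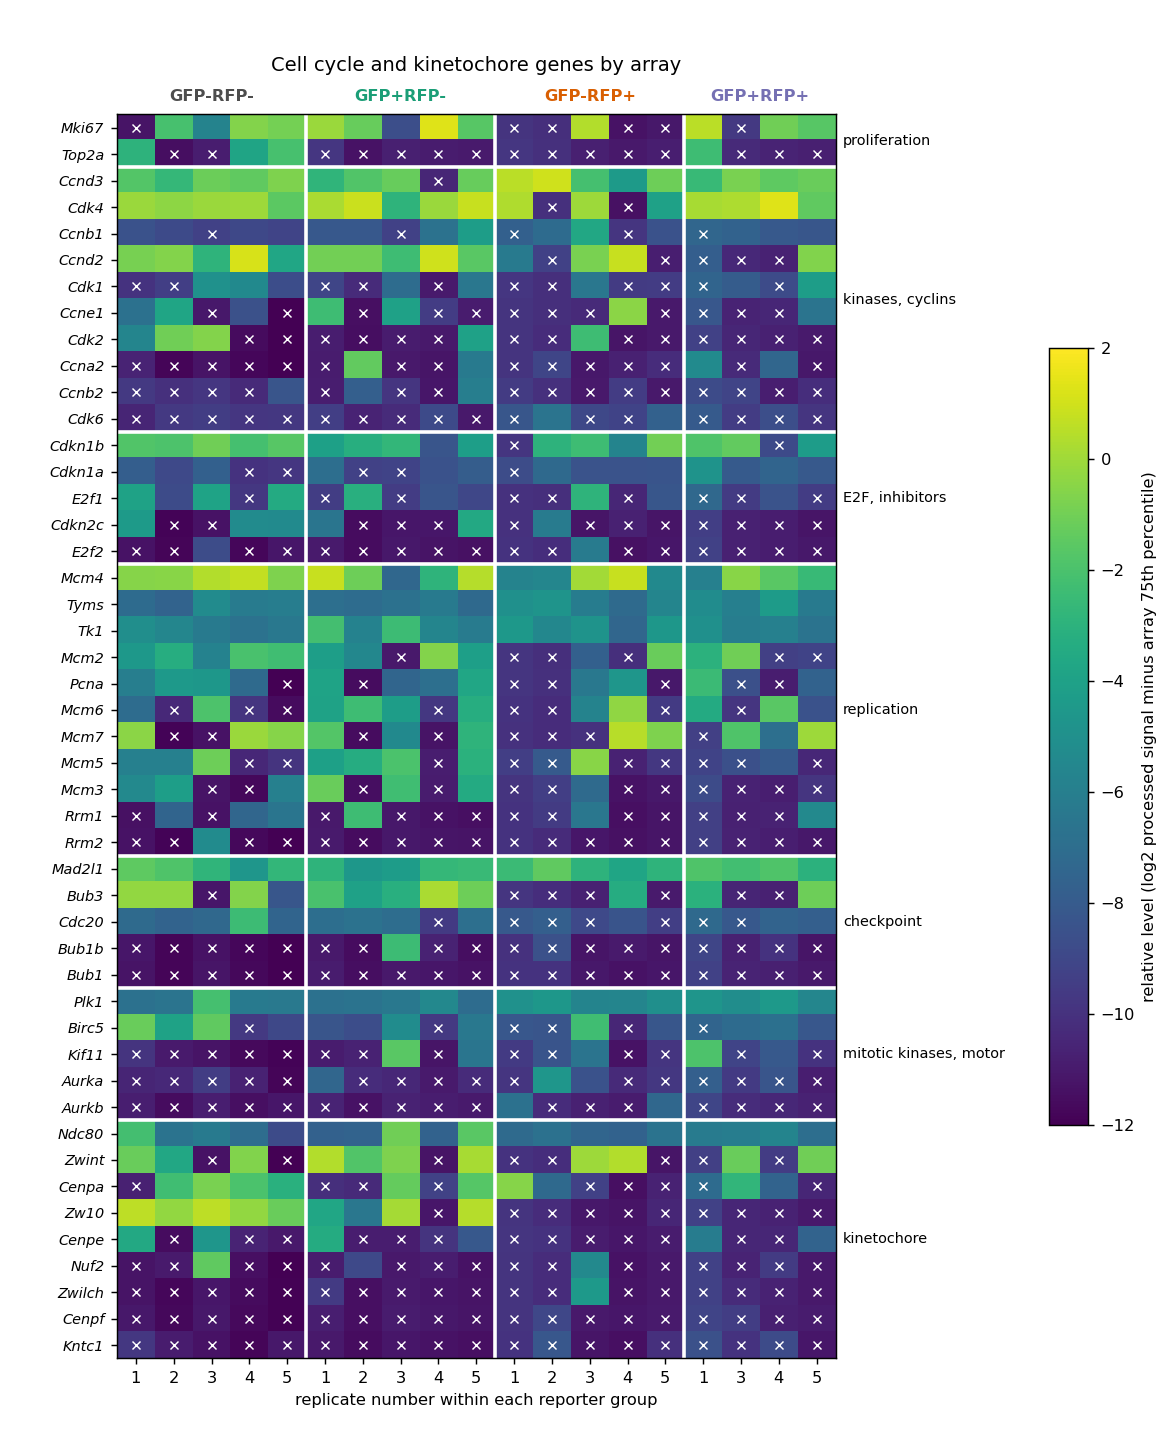
Relative level (colour, log2) of the 47 genes in rows, by role, on the 19 arrays in columns, by reporter group and replicate number; a white cross marks a value not well above background. Zw10 is bright on all 5 GFP-RFP- arrays and crossed on all 9 RFP+ arrays, and Bub1, Cenpf and Kntc1 are crossed on all 19.

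By the probe used for each gene, 6 of the 47 genes were detected on all 19 arrays: Mcm4, Tyms, Tk1, Mad2l1, Plk1 and Ndc80. A further 17 were detected on 10 to 18 arrays, 12 on 4 to 9, and 9 on 1 to 3 (Aurka, Aurkb, Bub1b, Ccnb2, Cdk6, E2f2, Nuf2, Rrm2 and Zwilch). The checkpoint kinase Bub1, the centromere protein Cenpf and the kinetochore protein Kntc1 were well above background on none. Aurora kinases A and B, the mitotic kinases encoded by Aurka and Aurkb, were detected on 3 and 2 arrays.

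The comparison of regulatory with conventional cells that lack the IL-2 reporter called 1 of the 35 genes, the kinetochore gene Zw10, which was lower in GFP-RFP+. Over all genes 1.7% were called (351 of 20620), 1.23% lower and 0.47% higher, so 1 of 35 is near the background. The median difference of the 35 genes was -1.58 log2 units (11 above 0, 24 below), and that of all genes tested was -0.29. At an unadjusted p under 0.05 there were 4 members (11.4%) and 22.6% of all genes. The direction of the calls over all genes depended on the scaling: 27.6% were higher here, and 74.6% to 87.1% were higher under the 5 other scalings or background corrections, which put the median of all genes between 0.25 and 1.02. The median of the 35 genes remained below that of all genes under each of these 5, at -1.52 to -0.28. It did not with probes detected on all arrays, where the medians were 0.23 and 0.22, or within slide 3, where they were -0.41 and -0.45.

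**Figure D3:**
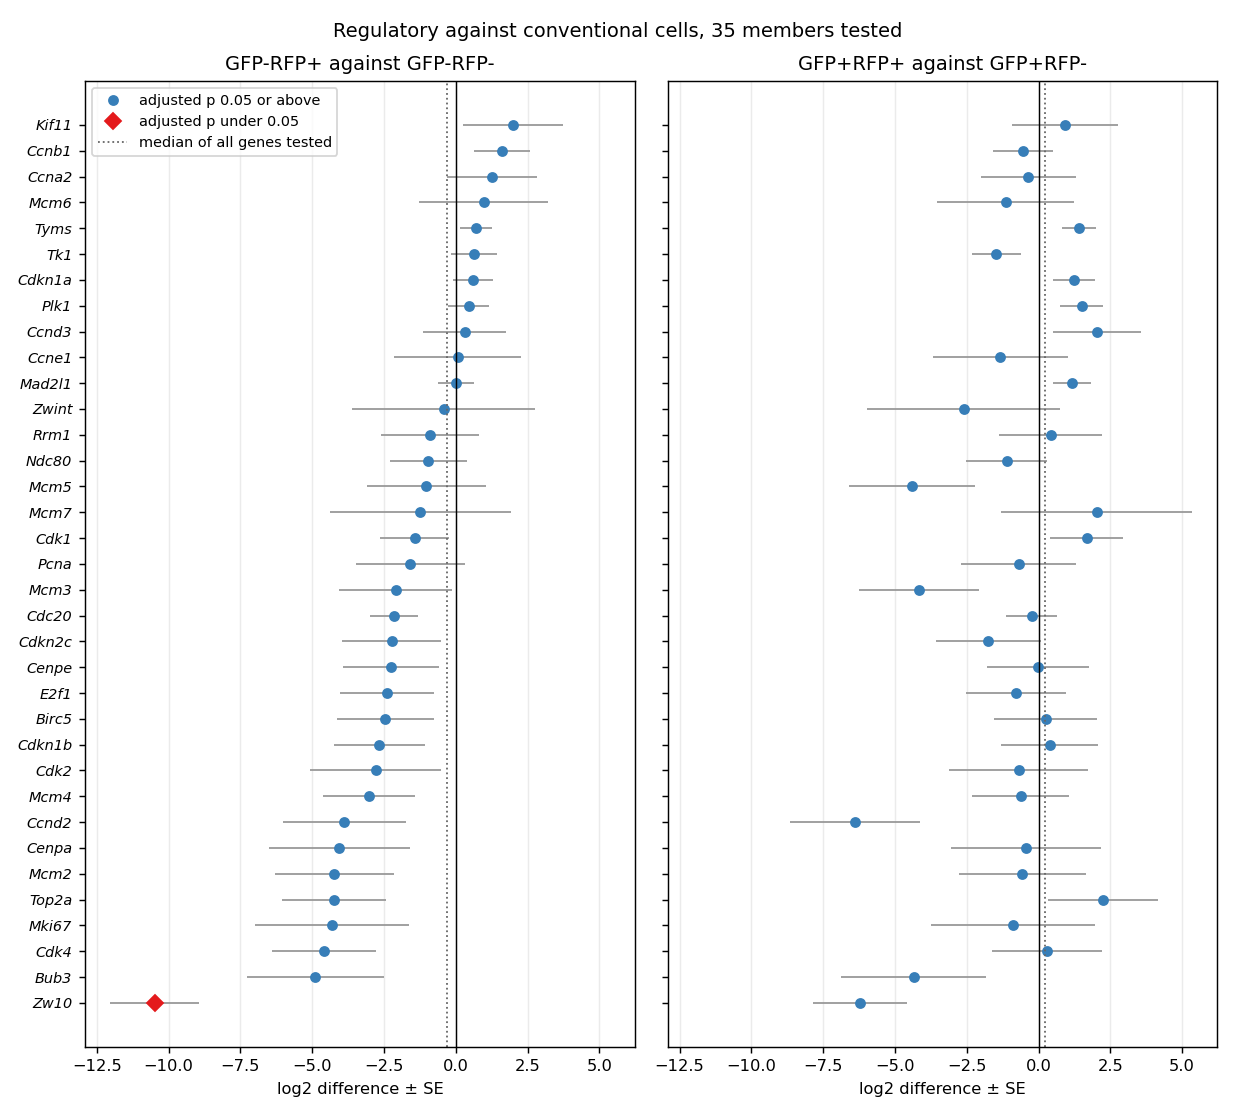
Log2 difference ± SE (x axis) of the 35 tested genes in GFP-RFP+ against GFP-RFP- (left) and GFP+RFP+ against GFP+RFP- (right), ordered by the left panel; a red diamond marks an adjusted p under 0.05 and the dotted line is the median of all genes tested. Zw10 lies at -10.49 on the left and at -6.22 on the right, and no other gene is marked.

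Zw10 encodes a subunit of the Rod-Zw10-Zwilch complex, which brings dynein and the checkpoint proteins Mad1 and Mad2 to unattached kinetochores, and it also acts in interphase in a tether for vesicles between Golgi and endoplasmic reticulum. The array measured it with 1 probe (A_51_P137007), which lies at chr9:48886529-48886588 on the plus strand in mm9 and matches NM_012039 from transcript position 2546. The first 30 of the 60 bases of that probe are shown because the one call of this gene set rests on it.
Zw10: atcatggaagcgtaacttcacataaggaca

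On the 5 GFP-RFP- arrays the Zw10 relative level was 0.63, -0.29, 0.61, -0.26 and -1.20, all well above background. On the GFP+RFP- arrays it was -3.74, -6.46, 0.10, -11.13 and 0.46, and replicate 4 was not well above background. On the GFP-RFP+ arrays it was -9.89, -10.22, -11.08, -11.27 and -10.48, and on the GFP+RFP+ arrays -9.28, -10.51, -10.67 and -11.02, none of them well above background. The 5 GFP-RFP- arrays lie apart from all 9 RFP+ arrays, and the GFP+RFP- arrays span both ends. In processed signal the GFP-RFP- values ran from 5086 to 25490 and the RFP+ values from 2.88 to 6.66. The Zw10 probe was not detected on GFP-RFP+ replicate 3 either, where 39.4% of probes and 29 of the 47 genes were detected.

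The log2 difference of Zw10 was -10.49 ± 1.55 SE in GFP-RFP+ against GFP-RFP- (adjusted p = 0.00593). Because the dim group had only a bound, the ratio is given against the lowest signal that was well above background on each dim array (or the probe's own value where higher), and it was at least 467-fold lower. In GFP+RFP+ against GFP+RFP- the difference was -6.22 ± 1.65 SE (adjusted p = 0.104), with 4 of the 5 GFP+RFP- arrays well above background. No bound on the ratio is given there, since the brighter group held an array not well above background. Leaving out each of the 19 arrays in turn, this second difference was -7.96 to -5.06, with adjusted p from 0.00465 to 0.242. It was called in 1 of these fits and not in the other 18. The call came without GFP+RFP- replicate 4, the array of that group where Zw10 was not well above background and 30.2% of probes were detected. The interaction, the second difference less the first, was 4.27 ± 2.26 SE (adjusted p = 0.999). GFP+RFP- against GFP-RFP- gave -4.05 ± 1.55 SE (adjusted p = 0.896). Between GFP+RFP+ and GFP-RFP+ no difference is given, since no array of either group was well above background.

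The call in GFP-RFP+ held without any 1 of the 19 arrays, with adjusted p between 4.08e-05 and 0.0203. Without the 3 arrays under 30% together, the difference was -10.49 with an adjusted p of 0.0509. With the share of detected probes of each array as a covariate the difference was -9.17 (adjusted p = 0.264), and within the 3 slides Zw10 gave -11.11, -9.94 and -9.68 (adjusted p = 0.0519, 0.177 and 0.138). Slide 2 holds 1 GFP-RFP+ array and slide 3 holds 1 GFP-RFP- array, which the fit assumes to vary like the other groups, so these p-values say little about stability. The pattern of at least 9 of 10 RFP- arrays and no RFP+ array was found for 22 of 20620 genes (0.107%), of which Zw10 was the only one among the 47. This pattern equals the detection of Zw10 itself, so the count is a description and no test of Zw10. Detection on all GFP-RFP- and no GFP-RFP+ array held for Zw10 alone of the 35 genes tested, and for 0.805% of all genes. The 2 partners of Zw10 in its kinetochore complex could not be set beside it, since Zwilch was detected on 1 of 19 arrays and Kntc1, which encodes Rod, on none.

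**Figure D4:**
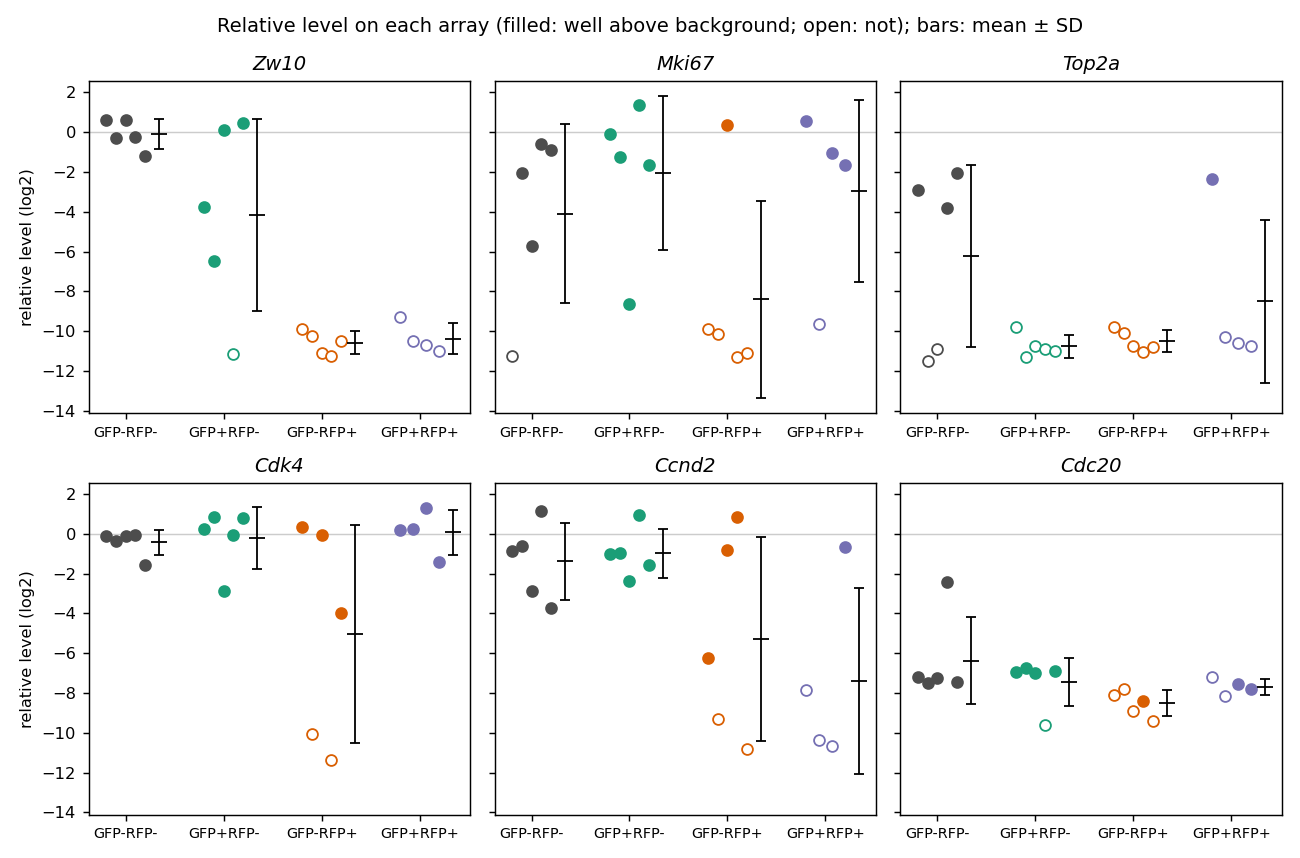
Relative level (y axis, log2) of Zw10, Mki67, Top2a, Cdk4, Ccnd2 and Cdc20 on each array by reporter group (x axis); filled points are well above background, open points are not, and the bar beside each group is mean ± SD. Zw10 separates the GFP-RFP- arrays from the RFP+ arrays, while Mki67, Top2a, Cdk4 and Ccnd2 are bright on some RFP+ arrays and at background on others.

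The other kinetochore genes did not share this pattern. Cenpa, the histone H3 variant of the centromere, was detected on 4 GFP-RFP-, 2 GFP+RFP-, 2 GFP-RFP+ and 2 GFP+RFP+ arrays, and its difference in GFP-RFP+ against GFP-RFP- was -4.05 ± 2.47 SE (adjusted p = 0.338). Ndc80, the microtubule-binding subunit, was detected on every array, with means of -6.18 ± 2.44, -5.09 ± 3.46, -7.13 ± 0.41 and -6.21 ± 0.52 (mean ± SD by group). Zwint, which links Zw10 to the outer kinetochore, was detected on 3, 4, 2 and 2 arrays in the same order and differed by -0.43 ± 3.18 SE (adjusted p = 0.954). A second Zwint probe was detected on 3, 4, 0 and 1 arrays. That probe gave -3.98 in GFP-RFP+ against GFP-RFP- and -5.27 in GFP+RFP+ against GFP+RFP-. Cenpe, the kinetochore motor, was detected on 2, 2, 0 and 2. All 5 tested kinetochore genes had a difference below 0 in GFP-RFP+, and 1 passed the test.

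Among the checkpoint genes, Mad2l1, which encodes the Mad2 inhibitor of Cdc20, was detected on all 19 arrays. Its means were -2.72 ± 1.22, -3.39 ± 0.97, -2.71 ± 0.87 and -2.24 ± 0.55 (mean ± SD by group). Its difference in GFP-RFP+ against GFP-RFP- was 0.00 ± 0.62 SE (adjusted p = 0.997), while a second probe detected on 7 arrays gave -2.53. Bub3, which carries Bub1 to the kinetochore, was detected on 4, 5, 1 and 2 arrays of GFP-RFP-, GFP+RFP-, GFP-RFP+ and GFP+RFP+, with differences of -4.89 ± 2.38 SE in GFP-RFP+ (adjusted p = 0.232) and -4.36 ± 2.52 SE in GFP+RFP+ (adjusted p = 0.378). Bub1b, the BubR1 kinase, was detected on 1 array.

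Cdc20, the activator of the anaphase-promoting complex, was the only gene besides Zw10 whose GFP-RFP+ and GFP-RFP- arrays did not overlap. Its levels were -7.18, -7.52, -7.25, -2.43 and -7.47 in GFP-RFP-, -6.96, -6.74, -6.99, -9.61 and -6.88 in GFP+RFP-, -8.10, -7.78, -8.89, -8.38 and -9.43 in GFP-RFP+, and -7.20, -8.17, -7.56 and -7.79 in GFP+RFP+. It was detected on all 5 GFP-RFP- arrays and on 1 GFP-RFP+ array. The difference was -2.15 ± 0.85 SE (adjusted p = 0.157) and was -1.16 without GFP-RFP- replicate 4, the one bright array. Genes of the set whose GFP-RFP+ arrays all lay below the GFP-RFP- arrays numbered 2 of 35 (5.71%), against 2.58% of all genes, and none lay above, against 4.09%.

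The proliferation markers were scattered. Mki67 encodes Ki-67, a protein of dividing cells, and Top2a encodes the topoisomerase that untangles replicated chromosomes. Both Mki67 probes match NM_001081117 on the minus strand of chromosome 7 (mm9): A_51_P253803 at chr7:142881591-142881650, detected on 9 arrays, and A_55_P2073377 at chr7:142884764-142884823, detected on 13 and used for the gene. Their first 30 bases are printed because the share of arrays with Ki-67 transcript depends on which is read.
Mki67 A_51_P253803: atactactgctactgcctgagtttaaggaa
Mki67 A_55_P2073377: cagtgaacctaagccaagggtaactcgtgg

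By the second probe, Mki67 was -11.27, -2.07, -5.71, -0.57 and -0.91 in GFP-RFP-, where replicate 1 was not well above background. It was -0.11, -1.23, -8.66, 1.34 and -1.64 in GFP+RFP-, all detected. In GFP-RFP+ it was -9.88, -10.12, 0.38, -11.32 and -11.10, with replicate 3 alone detected, and in GFP+RFP+ it was 0.55, -9.66, -1.04 and -1.63, with replicate 3 not detected. By this probe Mki67 was thus detected on 4 of 5, 5 of 5, 1 of 5 and 3 of 4 arrays. The differences were -4.30 ± 2.68 SE in GFP-RFP+ against GFP-RFP- (adjusted p = 0.350), -0.89 ± 2.85 SE in GFP+RFP+ against GFP+RFP- (adjusted p = 0.905) and 5.46 ± 2.85 SE in GFP+RFP+ against GFP-RFP+ (adjusted p = 0.917). The first of these was 3.74 on slide 1, which holds GFP-RFP+ replicate 3, and the other probe gave -3.03 over all arrays. That other probe was detected on 3, 4, 0 and 2 arrays of the 4 groups. Its highest level in GFP-RFP+ was -9.95, so replicate 3 was detected by the second probe only.

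Top2a was -2.92, -11.49, -10.90, -3.81 and -2.08 in GFP-RFP-, with replicates 2 and 3 at background. It was between -11.32 and -9.77 in GFP+RFP- and between -11.03 and -9.77 in GFP-RFP+, with no array well above background in either group. In GFP+RFP+ it was -2.37 on replicate 1 and -10.76 to -10.31 on the others. Top2a and Mki67 did not go together in GFP+RFP-. Mki67 was detected on all 5 arrays by the probe used and on 4 by the other, and Top2a on none. Against GFP-RFP-, which detected it on 3 of 5 arrays, Top2a differed by -4.253 ± 1.815 SE in GFP-RFP+ (adjusted p = 0.181). In GFP+RFP- it differed by -4.52 ± 1.815 SE (adjusted p = 0.919), and neither passed the test. No bound on the ratio is given, since GFP-RFP- also held arrays at background.

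Among the cyclins and kinases, Ccnd3 was detected on 18 arrays, Cdk4 on 17, and Ccnd2 and Ccnb1 on 14 each, while the other 6 genes were detected on 2 to 8. Cdk4, the partner of D cyclins, was -0.09, -0.35, -0.11, -0.04 and -1.55 in GFP-RFP-, 0.24, 0.86, -2.88, -0.08 and 0.80 in GFP+RFP-, and 0.18, 0.26, 1.31 and -1.42 in GFP+RFP+. In GFP-RFP+ it was 0.34, -10.07, -0.06, -11.36 and -3.99, so 2 arrays were at background and 2 at the level of the other groups. Its difference in GFP-RFP+ against GFP-RFP- was -4.60 ± 1.81 SE (adjusted p = 0.155), and the 3 Cdk4 probes gave -6.53 to -3.98. GFP+RFP+ against GFP-RFP+ gave 5.11 ± 1.92 SE (adjusted p = 0.811), which was 3.53 to 6.45 without any 1 array.

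Ccnd2, a D cyclin induced in activated T cells, was -0.87, -0.62, -2.88, 1.14 and -3.72 in GFP-RFP- and -0.99, -0.98, -2.37, 0.97 and -1.55 in GFP+RFP-. It was -6.24, -9.30, -0.79, 0.82 and -10.83 in GFP-RFP+, and -7.83, -10.37, -10.66 and -0.64 in GFP+RFP+. All 10 RFP- arrays detected Ccnd2, as did 3 of the 5 GFP-RFP+ arrays and 1 GFP+RFP+ array, so RFP+ arrays lay at both ends. The difference was -6.39 ± 2.28 SE in GFP+RFP+ against GFP+RFP- (adjusted p = 0.173) and -3.88 ± 2.15 SE in GFP-RFP+ against GFP-RFP- (adjusted p = 0.289). On slide 3, which holds 1 GFP+RFP+ and 1 GFP+RFP- array, the first of these was 0.91.

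Ccnd3, the other D cyclin, was detected on 18 of 19 arrays and differed by 0.31 ± 1.44 SE in GFP-RFP+ against GFP-RFP- (adjusted p = 0.924), but its 2 probes, which match different transcripts, gave opposite signs (0.31 and -3.82). Of the cyclins of later phases, Ccne1 was detected on 7 arrays, Ccna2 on 4, Ccnb1 on 14 and Ccnb2 on 3. Ccna2 was on 2 GFP+RFP- and 2 GFP+RFP+ arrays and on no GFP-negative array, with a difference of 3.32 ± 1.57 SE in GFP+RFP- against GFP-RFP- (adjusted p = 0.969). These 4 arrays alone carried it past the filter, and the share of all genes with this pattern was not counted. Cdk1, the mitotic kinase, was detected on 8 arrays, Cdk2 on 5 and Cdk6 on 2, both of the latter in GFP-RFP+. None of the 8 tested genes of this group passed the test in any of the 5 comparisons by limma, and at an unadjusted p under 0.05 there was 1 in each of 4 comparisons and 0 in the interaction.

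Among the inhibitors, Cdkn1b, which encodes p27 and restrains Cdk2 in resting T cells, was -1.79, -1.92, -1.05, -2.11 and -1.62 in GFP-RFP-, and -4.03, -3.23, -2.75, -8.30 and -4.16 in GFP+RFP-. The 2 groups did not overlap, which held for 1 of the 35 genes in this comparison, against 0.703% of all genes in the lower direction, and for none in the higher, against 1.69%. The difference was -2.79 ± 1.60 SE (adjusted p = 1.00). The RFP+ arrays ran from -9.85 to -0.97, across both groups, and the second Cdkn1b probe gave a difference of the opposite sign in GFP-RFP+ against GFP-RFP- (0.72 against -2.66). Cdkn1a, which encodes p21, was detected on 3, 3, 4 and 4 arrays in the group order used above and differed by 1.24 ± 0.73 SE in GFP+RFP+ against GFP+RFP- (adjusted p = 0.381). E2f1, a transcription factor of S phase genes, was detected on 4, 3, 2 and 1 arrays and Cdkn2c, which encodes p18, on 3, 2, 1 and 0.

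The replication genes held 3 of the 6 genes detected everywhere. Mcm4, a subunit of the replicative helicase, averaged -0.13 ± 0.64, -2.01 ± 3.32, -3.15 ± 3.30 and -2.64 ± 2.34 (mean ± SD by group), with an SD above 2 in all groups but the first. The other helicase subunits were detected on fewer arrays: Mcm2 on 13, Mcm3 on 7, Mcm5 on 9, Mcm6 on 11 and Mcm7 on 11. Mcm3 was on 3 GFP+RFP- arrays and no GFP+RFP+ array (-4.18 ± 2.09 SE, adjusted p = 0.310). Pcna, the sliding clamp, was detected on 4, 4, 2 and 2 arrays.

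Tyms, thymidylate synthase, which makes dTMP, averaged -6.43 ± 0.92, -6.84 ± 0.38, -5.73 ± 0.96 and -5.43 ± 0.88 (mean ± SD by group). Its difference in GFP+RFP+ against GFP+RFP- was 1.40 ± 0.58 SE (adjusted p = 0.230), 1 of 3 members at an unadjusted p under 0.05 there. After the normexp background correction its adjusted p was 0.0345, under a setting that called 4887 of the 20620 genes, 94.2% of them higher. Of the ribonucleotide reductase subunits, Rrm1 was detected on 6 arrays and Rrm2 on 1.

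Tk1, thymidine kinase 1, which salvages thymidine in S phase, was read very differently by its 3 probes. The probe used (A_55_P2056493, chr11:117683390-117683449, mm9, minus strand) matches ENSMUST00000153298 and was detected on all 19 arrays. The probe for the RefSeq transcript NM_009387 (A_55_P2056496, chr11:117676845-117676904) was detected on 1 array, and the third (A_55_P2056501, chr11:117685654-117685713, ENSMUST00000129852) on 4. The first 30 bases of each are shown so that these readings can be told apart.
Tk1 A_55_P2056493: ttgggtgtggccgtcattggcatcgatgag
Tk1 A_55_P2056496: cctcagctcttagtgagccacttttcttgt
Tk1 A_55_P2056501: ttccactggacatttccctctgagcccaag

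By the first probe Tk1 averaged -6.02 ± 0.67, -4.42 ± 1.97, -5.37 ± 1.20 and -5.90 ± 0.69 (mean ± SD by group), and GFP+RFP- replicates 1 and 3 stood highest at -2.16 and -2.38. Its difference in GFP-RFP+ against GFP-RFP- was 0.65 ± 0.80 SE (adjusted p = 0.668). Over the 47 genes, 15 had more than 1 probe and 9 had more than 1 that was tested. For Ccnd3, Cdkn1b and Mad2l1 the tested probes differed in sign in that comparison.

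Of the mitotic kinases and motors, Plk1, polo-like kinase 1, was detected on all arrays, with means of -5.63 ± 1.97, -6.47 ± 0.61, -5.18 ± 0.47 and -4.97 ± 0.51 (mean ± SD by group). Its difference was 1.50 ± 0.75 SE in GFP+RFP+ against GFP+RFP- (adjusted p = 0.312). Birc5, which encodes survivin of the chromosomal passenger complex, was detected on 4, 4, 2 and 3 arrays and its 3 probes gave -3.80 to -2.46 in GFP-RFP+ against GFP-RFP-. Kif11, the motor that separates the spindle poles, was on 0, 2, 1 and 2 arrays.

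Of the 35 genes, none was called in GFP+RFP+ against GFP+RFP-, where 0.204% of all genes were (42 of 20620; 0.0873% higher and 0.116% lower). No gene of the set had groups without overlap there, against 6.36% of all genes higher and 1.45% lower. At an unadjusted p under 0.05 there were 3 members (8.57%) and 17.4% of all genes by limma, and the median difference was -0.54 for the members and 0.22 for all genes. None was called in GFP+RFP- against GFP-RFP-, where 2 of 20620 genes were (0.0097%), both lower. There, 3 members and 5.14% of all genes had an unadjusted p under 0.05, and the medians were -0.40 and -0.02. None was called in GFP+RFP+ against GFP-RFP+, where 1 gene was (0.00485%), and no gene of the set had groups without overlap, against 0.815% of all genes higher and 0.204% lower. There, 1 member and 5.4% of all genes had an unadjusted p under 0.05, and the medians were 0.69 and 0.41. In the interaction no member was called and 2 genes were (0.0097%), with 1 member and 4.92% of all genes at an unadjusted p under 0.05. Detection on every array of the second group and no array of the first held for no gene of the set in these 3 pairs of groups, against 0.407%, 0.0921% and 0.0145% of all genes. Comparisons that share a group share its arrays, so their values are not independent of each other.

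Other genes of the cell cycle machinery, were taken from 4 lists that do not include the members. Of 28 tested genes of replication origins and forks, 1 was called in GFP-RFP+ against GFP-RFP-, where 1.7% of all genes were. This was Dbf4, the activating subunit of the kinase that fires origins, which was detected on 5 of 5 GFP-RFP- arrays (mean -1.0 ± 1.63 SD) and 0 of 5 GFP-RFP+ arrays (-10.14 ± 0.89 SD), at least 249-fold lower (log2 difference -9.14 ± 2.02 SE, adjusted p = 0.0348). In GFP+RFP+ against GFP+RFP- Dbf4 differed by -0.56 ± 2.14 SE (adjusted p = 0.924). The list's median difference was -2.06 (6 above 0, 22 below). Gins4 was among the 6 above 0, at 6.10 ± 2.27 SE (adjusted p = 0.138). In GFP+RFP+ against GFP+RFP- Gins4 differed by -6.24 ± 2.41 SE (adjusted p = 0.2005).

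Of 19 tested genes of G1 control and the Rb family, 1 was called in the same comparison, again against 1.7% of all genes. Cdkn2d, which encodes the Cdk4 inhibitor p19, was detected on 5 of 5 GFP-RFP- arrays (-2.58 ± 0.53 SD), 2 of 5 GFP+RFP- (-8.89 ± 3.14 SD), 1 of 5 GFP-RFP+ (-9.23 ± 2.53 SD) and 0 of 4 GFP+RFP+ arrays (-10.39 ± 0.79 SD), with a log2 difference of -6.65 ± 1.30 SE in GFP-RFP+ (adjusted p = 0.0217). It differed by -6.31 ± 1.30 SE in GFP+RFP- against GFP-RFP- as well (adjusted p = 0.240). Cdkn2a was detected on 1 GFP-RFP-, 1 GFP+RFP-, 4 GFP-RFP+ and 4 GFP+RFP+ arrays and differed by 1.58 ± 0.70 SE in GFP-RFP+ (adjusted p = 0.196) and 2.48 ± 0.75 SE in GFP+RFP+ (adjusted p = 0.128). The list's median in GFP-RFP+ against GFP-RFP- was -2.21 (4 above 0, 15 below).

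None of 21 tested kinetochore and cohesion genes and none of 17 tested genes of the anaphase-promoting complex was called in any comparison by limma. In GFP-RFP+ against GFP-RFP- there were 4 of the 21 and 4 of the 17 at an unadjusted p under 0.05, where 22.6% of all genes were. The median difference was -0.62 for the kinetochore and cohesion genes (7 above 0, 14 below) and -1.32 for those of the anaphase-promoting complex (6 above, 11 below). The cohesin subunit Rad21 was detected on all 10 RFP- arrays, 2 GFP-RFP+ arrays and 1 GFP+RFP+ array. Its differences were -5.00 ± 1.27 SE in GFP-RFP+ against GFP-RFP- (adjusted p = 0.0523) and -6.31 ± 1.35 SE in GFP+RFP+ against GFP+RFP- (adjusted p = 0.0601). Spc25, with the next smallest p of this list in the first comparison, was higher there (2.33 ± 0.86 SE, adjusted p = 0.134). It was detected on 1 GFP-RFP-, 4 GFP+RFP-, 4 GFP-RFP+ and 3 GFP+RFP+ arrays. Anapc13, a small subunit of the anaphase-promoting complex, differed by -7.10 ± 2.06 SE in GFP-RFP+ (adjusted p = 0.0790) and -2.15 ± 2.19 SE in GFP+RFP+ (adjusted p = 0.637).

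The promoters of the genes were searched on both strands for 3 short motifs, in the 250 bases before the start site (RefSeq, GRCm38.p6): TTTCCCGC, an E2F site; TTTGAA, the cell cycle homology region (CHR) of late cell cycle genes; and CCAAT, the NF-Y box. A base could count for more than 1 motif. The table held 48 promoters of 42 of the 47 genes and 32851 in all. CCAAT was in 32 of the 48 (66.7%) and in 33.8% of all promoters, TTTGAA in 12 (25%) and 16.0%, and TTTCCCGC in 2 (4.17%, Cdk2 and Mcm7) and 0.895%. The promoters of the 2 genes whose GFP-RFP+ and GFP-RFP- arrays did not overlap are shown in the direction of transcription, with TTTGAA and CCAAT in capitals. Cdc20 lies at chr4:118437344-118437593 (minus strand) and Zw10 at chr9:49055331-49055580 (plus strand).
Cdc20: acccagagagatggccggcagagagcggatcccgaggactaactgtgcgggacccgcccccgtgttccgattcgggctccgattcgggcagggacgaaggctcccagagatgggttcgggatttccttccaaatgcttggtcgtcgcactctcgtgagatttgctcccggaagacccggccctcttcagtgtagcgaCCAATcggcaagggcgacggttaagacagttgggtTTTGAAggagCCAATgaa
Zw10: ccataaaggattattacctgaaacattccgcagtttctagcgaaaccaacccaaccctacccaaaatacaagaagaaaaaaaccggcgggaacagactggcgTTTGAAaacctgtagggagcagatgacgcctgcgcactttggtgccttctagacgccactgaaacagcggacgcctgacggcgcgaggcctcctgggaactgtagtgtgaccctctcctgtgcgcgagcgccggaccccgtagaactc

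The Cdc20 promoter holds CCAAT on both sides of its TTTGAA, near the start site. The Zw10 promoter holds TTTGAA and no CCAAT in this window. A match is a description of the letters and not a measured site.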

How the data were processed

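The deposited files were scanner output of 19 Agilent single-colour arrays, and per the file headers the authors used Feature Extraction 10.7.3.1, with probe positions in mm9. The column used was the processed signal, an intensity that the authors' software background-corrected. Signals went to log2 and each array's 75th percentile, taken over the 6612 probes that every array detected, was subtracted. The authors' deposited series table, in log2 units, was used as an alternative; its centring is not stated and was taken from the values. Control spots and flagged outlier spots were left out, and probes had to be well above background on 4 or more arrays (28101 of 55681 probes). The probe of highest mean stood for a gene. One limma 3.58.1 fit (R 4.3.3, tested on simulated data) over the 4 groups gave 5 comparisons. Alternatives were other scalings, filters and probe rules, blocks for replicate number, slide and scan day, fits within slides and scan days, percent detected as a covariate, and fits without dim or single arrays. The number of arrays limits the precision.

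The genes and lists were chosen with earlier results of these data known. Values per array are given for Mki67, Top2a, genes called and the 2 smallest p in each comparison, and for genes detected on all arrays of 1 group and none of another; group means are given for genes detected on all 19 arrays, and of each pathway list the genes called and up to 3 of smallest p are named. Cdc20 and Cdkn1b per array, and other genes of the set with their test, were added after their values were seen. Of the marker lists, 12 T cell, 10 B cell, 10 myeloid and dendritic, 10 NK and CD8, and 7 erythroid and platelet genes were on the array. Promoter sequences are from RefSeq (GRCm38.p6).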

Additional observations from a re-analysis of the deposited data

Results flagged for a closer look

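Arrays that stood far from the others of their group, by the gap to the nearest relative to the group's range, were found in 7 of 48 gene and group pairs examined (12 genes in 4 groups); chance gives about 1 in 20 where replicates are normally distributed. That rate does not apply to Mki67 and Top2a here, whose other arrays lie at background, so that 1 detected array leaves a wide gap. Cdk4 was low at -1.55 on GFP-RFP- replicate 5 (others -0.35 to -0.04) and at -2.88 on GFP+RFP- replicate 3 (others -0.08 to 0.86). Top2a was high at -2.37 on GFP+RFP+ replicate 1 (others -10.8 to -10.3). Mki67 was high at 0.38 on GFP-RFP+ replicate 3 (others -11.3 to -9.88), the array that also had the high Foxp3 level. The other Mki67 probe was not well above background on any GFP-RFP+ array. Cdc20 was high at -2.43 on GFP-RFP- replicate 4 (others -7.52 to -7.18) and low at -9.61 on GFP+RFP- replicate 4 (others -6.99 to -6.74). Plk1 was high at -2.13 on GFP-RFP- replicate 3 (others -6.78 to -6.26).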

How the results depend on the processing

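In GFP-RFP+ against GFP-RFP- the 1 gene called of 35 (Zw10) became 2 with the percentile over all probes or after normexp (Ccnb1 added), 3 after quantile normalization or in the authors' table (Tk1 and Tyms added), and 3 within scan day 2 (Bub3, Ccnd2 and Mki67, lower, without Zw10). It became 0 with probes detected on all arrays, where Zw10 was not tested, within each of the 3 slides, within scan days 1 and 3, with percent detected as a covariate, and without the 3 arrays under 30% detected (Zw10 adjusted p = 0.0509). The members' median in that comparison turned from -1.58 to 0.23 with probes detected on all arrays. In GFP+RFP+ against GFP+RFP- the count of 0 became 2 after normexp (Cdkn1a and Tyms, higher). Leaving out each array in turn gave 1 to 1 calls in the first comparison, 0 to 1 in the second (1, Zw10, without GFP+RFP- replicate 4) and 0 in the others; the remaining 3 comparisons had 0 calls under every alternative run. Signs turned, never for a call, for Cdk4 in GFP-RFP+ within slide 1 and scan day 1 (0.24), Mki67 in GFP-RFP+ there (3.74) and in GFP+RFP+ against GFP-RFP+ within scan day 1 (-4.91), Ccnd2 in GFP+RFP+ within slide 3 (0.91), and, within slide 3, Zw10 in GFP+RFP- against GFP-RFP- (1.66) and in the interaction (-1.80). Slide 3 holds 1 array of each of GFP-RFP-, GFP+RFP- and GFP+RFP+, and slide 2 holds 1 GFP-RFP+ and 1 GFP+RFP+ array. Scan days 1 and 2 each hold 1 GFP+RFP+ array, and scan day 3 holds 1 array each of GFP-RFP- and GFP-RFP+. Several of these results thus rest on single arrays. The causes were not tested. Scan days were added after seeing the data; scan day 3 has no GFP+RFP- array, so 3 comparisons had no value there, and a fit on only the groups compared is not defined for the interaction.

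Genes called over the whole array in GFP-RFP+ against GFP-RFP- went from 351 to between 2202 and 4754 with other scalings, 5 with the covariate, 27 without the 3 arrays under 30%, and 85 to 1166 without 1 array; in GFP+RFP+ against GFP+RFP- they went from 42 to between 10 and 4887 with other scalings and 2 to 300 without 1 array. Same-numbered samples did not pair (27 pairs, median correlation of deviations 0.01, none over 0.1; 6 of 19 arrays correlated best with their own number). With the replicate block 198 and 8 genes were called and Zw10 kept its call (-10.49, adjusted p = 0.0124). The level at which arrays detect a probe limits most of these genes, and precision is limited by 4 or 5 arrays a group.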

Other observations

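Zw10 also forms a vesicle tether at the endoplasmic reticulum with the products of Rint1 and Nbas and the SNARE Stx18. These 3 genes were looked up after the Zw10 values were seen. Rint1 was detected on all 19 arrays, with -2.66 ± 1.59, -5.54 ± 2.35, -6.57 ± 2.01 and -6.87 ± 0.89 (mean ± SD) in GFP-RFP- through GFP+RFP+ in the order used above. Its difference was -3.90 ± 1.13 SE in GFP-RFP+ against GFP-RFP- (adjusted p = 0.0777) and -1.33 ± 1.19 SE in GFP+RFP+ against GFP+RFP- (adjusted p = 0.590). Stx18 was detected by the probe used on 2 GFP-RFP-, 4 GFP+RFP-, 0 GFP-RFP+ and 1 GFP+RFP+ arrays (-2.62 ± 1.77 SE in GFP-RFP+, adjusted p = 0.392). Nbas was detected on 1, 0, 3 and 0 arrays.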
